A study of Mus musculus with 6 samples.

Results

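The protein arginine methyltransferases are the enzymes that add methyl groups to arginine residues of histones, RNA-binding proteins and signalling proteins. The 7 genes described here, Prmt1, Prmt2, Prmt3, Prmt5, Prmt6, Prmt7 and Carm1, were taken as every probe set whose only annotated gene symbol was one of these names, which gave 11 of the 22690 probe sets on the array. The family was selected on a measured value, the higher Prmt1 signal in the cochlear nucleus of the silenced ear. The differences of its members between the sides are therefore given as a description, without a test. Messenger RNA was measured in the cochlear nucleus, the first brainstem relay of hearing, of mice at postnatal day 21. All mice had received tetrodotoxin, which blocks voltage-gated sodium channels, in 1 cochlea by osmotic pump for 24 h. The ipsilateral group was the nucleus on the infused side and the contralateral group the nucleus on the other side of the treated mice, so no group came from untreated mice. Each group had 3 biological replicates, each made by pooling the nuclei of 10 to 12 mice for 1 Affymetrix array, and no strain, sex or genetic modification was given in the labels.

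Arginine methyltransferases take the methyl group from S-adenosylmethionine. Type I enzymes, among them Prmt1, Prmt3, Prmt6 and Carm1, make asymmetric dimethylarginine, the type II enzyme Prmt5 makes symmetric dimethylarginine, and Prmt7 makes monomethylarginine. Prmt1 carries out most asymmetric dimethylation in mammalian cells, and in mouse brain it is needed for the maturation of oligodendrocytes and for myelination. The comparison of the sides asked which transcripts of the nucleus are regulated when input from the auditory nerve is silenced.

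The promoters of Prmt1 and Prmt5 are shown because both held several CCAAT boxes, the motif bound by the factor NF-Y, while their transcripts had the largest and the smallest absolute difference among the members tested. Each sequence is the 250 bases before the annotated start, from RefSeq (GRCm38.p6), read 5′ to 3′ on the gene's strand, with CCAAT or its reverse complement ATTGG in capitals. That of Prmt1 lies at chr7:44986421-44986670 on the minus strand and that of Prmt5 at chr14:54517471-54517720 on the minus strand.
Prmt1: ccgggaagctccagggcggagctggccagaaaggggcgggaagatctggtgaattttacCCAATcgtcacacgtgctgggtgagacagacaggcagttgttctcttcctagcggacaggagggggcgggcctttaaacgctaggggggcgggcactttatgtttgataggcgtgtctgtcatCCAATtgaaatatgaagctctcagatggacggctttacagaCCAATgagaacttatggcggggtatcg
Prmt5: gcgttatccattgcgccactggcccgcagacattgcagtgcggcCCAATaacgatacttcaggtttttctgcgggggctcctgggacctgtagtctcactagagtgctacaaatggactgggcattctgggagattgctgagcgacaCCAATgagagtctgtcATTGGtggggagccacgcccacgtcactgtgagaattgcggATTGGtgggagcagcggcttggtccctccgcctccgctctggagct

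A promoter sequence was held for 6 of the 7 genes, Carm1 being the one not matched. The Prmt1 window had 3 CCAAT boxes, the first bases of which lay 191, 68 and 27 bases before the start, and the Prmt5 window had 4, at 206, 103, 87 and 46 bases. Over all 32851 promoter windows of this length, 33.8% held at least 1 CCAAT box on either strand and 2.79% held 3 or more. Prmt2 and Prmt3 had 1 each, and Prmt6 and Prmt7 had none. The GC box GGGCGG, the site of Sp1, was found 4 times before Prmt1, once each before Prmt2, Prmt3 and Prmt7, and not before Prmt5 or Prmt6. Over all windows 32.7% held at least 1 GC box and 8.47% held 3 or more. The E-box CACGTG was found before Prmt1 and Prmt3 and in 6.02% of all windows. The full cyclic AMP response element TGACGTCA was in none of the 6 windows and in 1.55% of all. The TATA box TATAAA was found before Prmt2 alone among them and in 12.4% of all windows. Both strands were searched, 0 matches within these 6 windows overlapped one another, and a match of letters is not evidence of binding.

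The deposited values are log2 expression values made with GCRMA. Such values allow each probe set to be compared between arrays, and not the level of one gene with that of another. Medians of the 6 arrays lay between 5.86 and 5.91. Differences are given as ipsilateral minus contralateral on the log2 scale with the standard error (SE) of the limma fit over all 6 arrays. Probe sets with a mean above 4 were tested, which left 15298, and among them 9 of the 11 member probe sets for all 7 genes. None of the 15298 passed a Benjamini-Hochberg adjusted p of 0.05 in limma (0%), the smallest adjusted p was 1.00, and 364 (2.38%) had an unadjusted p under 0.05. This main fit did not pair arrays by replicate number. With 3 arrays a side its SE and p-values measure the spread between pools of the same side, including level differences shared by arrays of the same number. In these bulk samples fewer cells of a type and less RNA per cell cannot be told apart.

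Prmt1 was higher on the infused side in every replicate. Its 1 probe set, 1452787_a_at, measured 8.23, 7.63 and 8.13 on contralateral arrays 1, 2 and 3 and 9.33, 8.53 and 9.25 on the ipsilateral arrays of the same numbers. The lowest ipsilateral value, that of replicate 2, was above the highest contralateral one, that of replicate 1, so the sides did not overlap. The means were 7.99 ± 0.32 and 9.04 ± 0.44 (SD, n = 3 each), a difference of 1.04 (SE 0.25) or a 2.06-fold higher signal. Replicate 2 was the lowest array of both sides, and the difference varied less than the levels did, at 1.10, 0.90 and 1.12 in replicates 1, 2 and 3 (SD 0.12). Among all tested probe sets the Prmt1 difference had rank 4 of 15298, highest first. In all, 4 probe sets were higher by 1 or more and 15 were lower by 1 or more. As the family was chosen for this difference, its rank is a description only. The Prmt1 difference rests on a single probe set, of the kind marked _a_at, whose probes match several transcripts of the same gene. The transcript variants of Prmt1 therefore cannot be separated here.

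**Figure D1:**
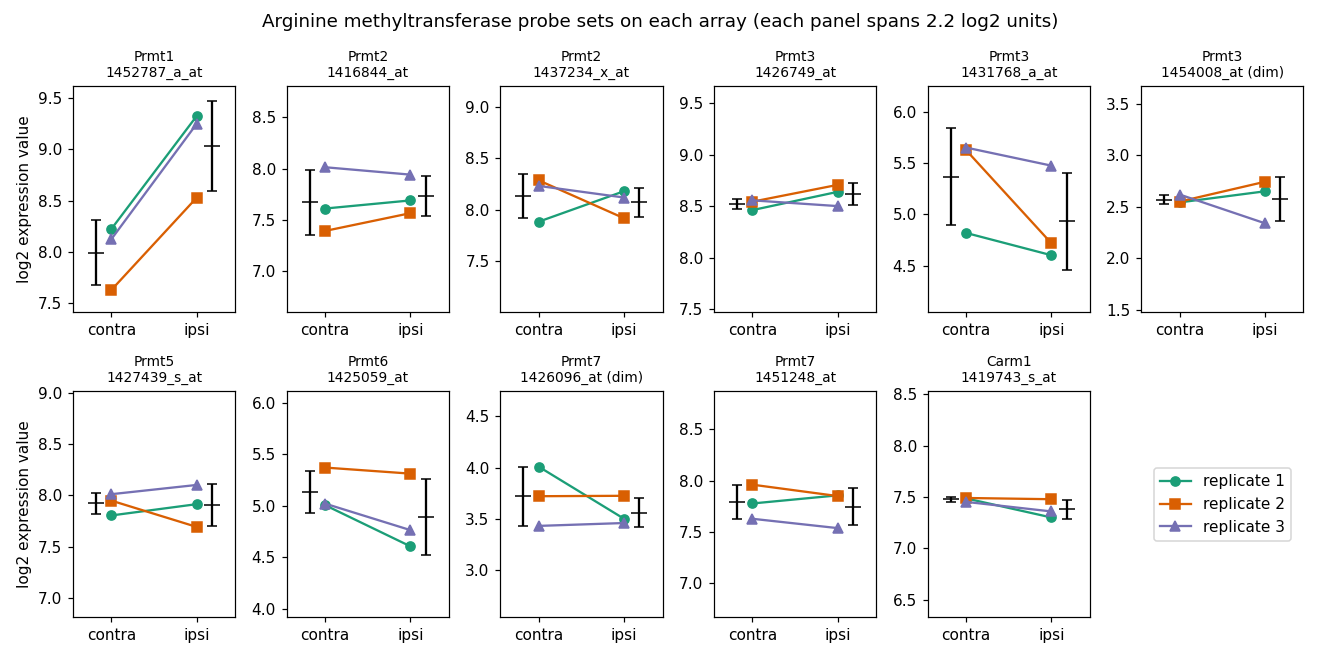
Log2 expression values (y axis, the same height in log2 units in every panel) of the 11 member probe sets on the contralateral and ipsilateral arrays, with lines joining arrays of the same replicate number and black bars for mean ± SD (n = 3). The 3 lines of Prmt1 climb side by side from 7.63 to 8.23 up to 8.53 to 9.33, while the sides overlap in the other 10 panels.

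None of the other 8 tested probe sets, for 6 genes, separated the sides. In all, 1 of the 9 tested member probe sets had every ipsilateral array above every contralateral array, against 2.82% of all tested probe sets, and 0 of 9 had every ipsilateral array below, against 3.44%. By replicate number 1 of 9 was higher in 3 of 3 replicates, against 10.7% of all, and 3 of 9 were lower in 3 of 3, against 13.0% of all. As the family was chosen for this contrast, nothing is read from these shares. Differences of the 8 ranged from -0.43 to 0.10 with a median of -0.05, where the median over all tested probe sets was -0.01 and the 5th and 95th percentiles were -0.25 and 0.23. In 5 of the 8 the difference was smaller than its SE, and in 8 of 8 it was smaller than 2 SE. With the replicate number as a block the latter held for 6 of 8, the exceptions being Prmt6 (-0.24, SE 0.10) and Prmt3 1431768_a_at (-0.43, SE 0.17). These had the lowest mean signal of the tested member probe sets, at 5.01 and 5.15, the next lowest being Carm1 at 7.43. A minimum mean of 6, used as an alternative filter, would leave Prmt6 and this Prmt3 probe set out.

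Carm1, also called Prmt4, is a coactivator of nuclear receptors that methylates histone H3 and RNA-binding proteins. Its probe set 1419743_s_at measured 7.49, 7.49 and 7.45 on the contralateral arrays, the tightest group of the family, and 7.30, 7.48 and 7.36 on the ipsilateral arrays. The difference was -0.10 (SE 0.09) and was negative in 3 of 3 replicates, at -0.19, -0.01 and -0.09. It was -0.06 without ipsilateral replicate 1 and -0.15 without ipsilateral replicate 2. Ipsilateral replicate 2 lay within the contralateral range and the other two below it.

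Prmt6 is a nuclear enzyme that methylates histone H3 and is mostly linked to repression of transcription. Probe set 1425059_at gave 5.01, 5.37 and 5.02 contralaterally and 4.60, 5.31 and 4.76 ipsilaterally. It was lower on the infused side in 3 of 3 replicates (-0.40, -0.06 and -0.26), with a mean difference of -0.24 (SE 0.20), which was -0.10 without ipsilateral replicate 1 and -0.45 without ipsilateral replicate 2. Replicate 2, the lowest array of each side for Prmt1, was the highest array of each side for Prmt6, and ipsilateral replicate 2 stood above contralateral replicates 1 and 3.

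Prmt3 is a cytosolic enzyme with a zinc finger that methylates the ribosomal protein Rps2, and its probe sets did not give the same picture. The brightest, 1426749_at, measured 8.46, 8.54 and 8.56 contralaterally and 8.64, 8.71 and 8.50 ipsilaterally, a difference of 0.10 (SE 0.10), with replicate 3 in the opposite direction at -0.06. The probe set 1431768_a_at measured 4.82, 5.63 and 5.65 contralaterally and 4.60, 4.72 and 5.47 ipsilaterally, a difference of -0.43 (SE 0.31). That value was negative in 3 of 3 replicates but came largely from replicate 2, where it was -0.91, against -0.22 and -0.18 in replicates 1 and 3. The differences of these 2 probe sets were 0.53 apart on average (SD 0.49 over 3 replicates). The other probe set, 1454008_at, was too dim to be tested, with values between 2.34 and 2.74.

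**Figure D2:**
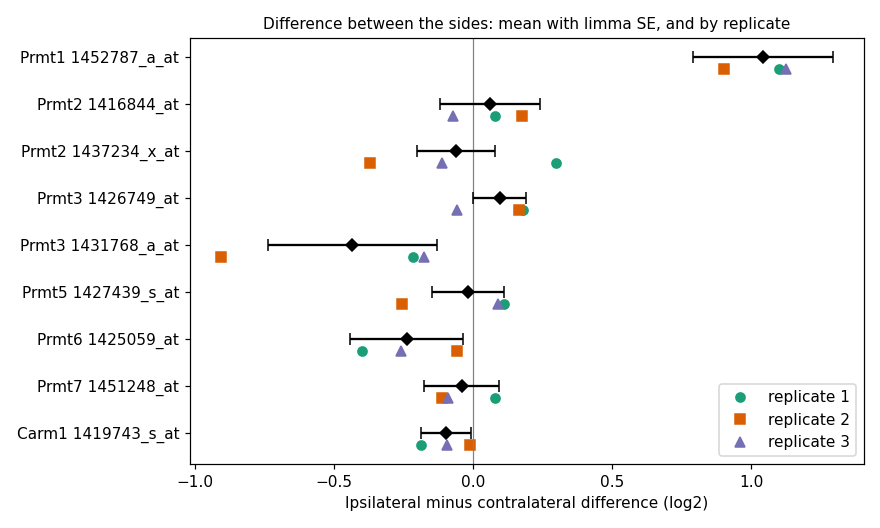
Ipsilateral minus contralateral difference (x axis, log2) of the 9 tested member probe sets, with black diamonds and bars for the mean and its limma SE and coloured symbols for each replicate. Prmt1 stands at 1.04, Prmt3 1431768_a_at at -0.43 with its replicate 2 at -0.91, and the other 7 lie between -0.24 and 0.10.

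Prmt2 has weak methyltransferase activity, carries an SH3 domain and acts as a coactivator of nuclear receptors. Its probe set 1416844_at measured 7.61, 7.39 and 8.01 contralaterally and 7.69, 7.57 and 7.94 ipsilaterally, a difference of 0.06 (SE 0.18). Replicate 3 was the highest and replicate 2 the lowest on both sides. The second probe set, 1437234_x_at, of a kind prone to cross-hybridization, measured 7.88, 8.29 and 8.23 contralaterally and 8.18, 7.92 and 8.12 ipsilaterally, a difference of -0.06 (SE 0.14). Its replicates went both ways, at 0.30, -0.37 and -0.11, and it did not show the order of the replicates seen with the first.

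Prmt5 works in a complex with Wdr77 and methylates histones and the Sm proteins of the splicing machinery. Probe set 1427439_s_at measured 7.80, 7.95 and 8.01 contralaterally and 7.91, 7.69 and 8.10 ipsilaterally, and the difference of -0.02 (SE 0.13) was the smallest in size of the tested members. The difference was -0.26 in replicate 2 and positive in the other two. Prmt7, the enzyme that makes monomethylarginine, measured 7.78, 7.96 and 7.63 contralaterally and 7.86, 7.85 and 7.54 ipsilaterally with 1451248_at, a difference of -0.04 (SE 0.13). Replicate 3 was the lowest array on both sides. The second Prmt7 probe set, 1426096_at, was too dim to be tested, with values between 3.43 and 4.01.

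The levels of the other members were set beside those of Prmt1 over the 6 arrays as a description, which holds the side and the replicate number in it at once. Pearson's r with Prmt1 was -0.89 for Carm1 and -0.83 for Prmt6. For the other tested probe sets it lay between -0.45, for Prmt3 1431768_a_at, and 0.44, for Prmt2 1416844_at. How common such negative values were over all probe sets was not counted, so nothing is read from them. Over all 14142 other tested probe sets with 1 gene name, 57 had an r above 0.9 with Prmt1. The 4 genes of highest r were Gja1 (0.99), Rrp1b (0.98), Pip5k1a (0.98) and Rian (0.97). Gja1, the gap junction protein connexin of astrocytes, had a difference of 0.11 with 1438945_x_at, and r for its other 5 probe sets was 0.00 to 0.67. Rrp1b, a nucleolar protein, had a difference of 0.50 with 1456117_at, while its other 2 probe sets had an r of -0.70 and -0.44. Pip5k1a, a kinase that makes phosphatidylinositol bisphosphate, had a difference of 0.51 with 1455191_x_at. Its other probe sets had an r of 0.91, 0.89 and -0.24. Rian, a long noncoding RNA of an imprinted cluster, had a difference of 0.67 with 1452899_at and an r of 0.70 and -0.33 with its other probe sets. These 4 were chosen for their likeness to Prmt1, which holds its side difference. Their own differences between the sides follow in part from that choice and are a description only.

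Genes that work with the methyltransferases showed no difference between the sides that passed the test. Of 61 such genes listed, 48 were tested and 13 had no probe set annotated to them alone, among them the brain-enriched family member Prmt8, and Prmt9. In limma 0 of 48 passed after adjustment over all probe sets. Before adjustment the count under 0.05 was also 0 of 48, against 2.38% of all tested probe sets. The median difference of the 48 was -0.01, equal at this rounding to that of all tested probe sets, with 20 genes higher and 28 lower and a range of -0.21 to 0.29.

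Among the 8 cofactors and regulators 1 was higher and 7 were lower on the infused side, and 0 passed the test. Coprs, which links Prmt5 to histones, had the smallest p (-0.16, SE 0.12, unadjusted p = 0.207 in limma) and measured 8.96, 8.91 and 8.77 contralaterally and 8.67, 8.90 and 8.58 ipsilaterally. Btg2, an activity-induced antiproliferative protein that binds Prmt1, measured 6.98, 7.27 and 6.44 contralaterally and 6.78, 6.94 and 6.52 ipsilaterally, a difference of -0.15 (SE 0.22). The sides of both genes overlapped. Epb41l3, a membrane skeleton protein that inhibits Prmt3, differed by -0.06 (SE 0.11), and Cnot7, a deadenylase that binds the Btg proteins, by -0.04 (SE 0.10). The values of Btg1, the other Prmt1-binding Btg protein (0.05, SE 0.24), and of the Prmt5 partner Wdr77 (-0.02, SE 0.09) were also within their errors.

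The methyl donor cycle had 6 tested genes, 1 higher and 5 lower. Ahcyl2, a protein related to the enzyme that removes the product inhibitor S-adenosylhomocysteine, differed by -0.13 (SE 0.12) and Ahcy, that enzyme, by 0.05 (SE 0.11). Mtrr, which keeps methionine synthase active, differed by -0.18 (SE 0.24), with ipsilateral replicate 1 at 4.17 and the other 5 arrays between 4.86 and 5.06. Adk, the kinase that clears adenosine from the cycle, differed by -0.04 (SE 0.09).

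Of 6 readers of methylarginine and genes of its turnover 3 were higher and 3 lower. Tdrd3, a Tudor domain reader of asymmetric dimethylarginine, had the smallest p of all 48 genes. It measured 7.30, 6.95 and 7.28 contralaterally and 7.01, 6.93 and 6.97 ipsilaterally, lower in 3 of 3 replicates, with a mean difference of -0.21 (SE 0.12, unadjusted p = 0.131, adjusted p = 1.00 in limma). Contralateral replicate 2 lay within the ipsilateral range. Smn1, the Tudor domain protein of spinal muscular atrophy, differed by -0.19 (SE 0.21), Jmjd6, a dioxygenase, by -0.13 (SE 0.13) and Snd1, a reader of symmetric dimethylarginine, by 0.09 (SE 0.11).

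Of 28 substrates, mostly RNA-binding proteins, 15 were higher and 13 lower, with a median of 0.01. The 4 of smallest p were Gar1, a nucleolar protein of the box H/ACA particles (0.15, SE 0.14), Ncl, nucleolin (0.11, SE 0.11), Pabpc1, the cytoplasmic poly(A)-binding protein and a Carm1 substrate (0.12, SE 0.14), and Scn2a, a voltage-gated sodium channel (0.29, SE 0.37). Pabpc1 was higher in 3 of 3 replicates and the other three in 2 of 3. Each of the 4 had sides that overlapped.

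**Figure D3:**
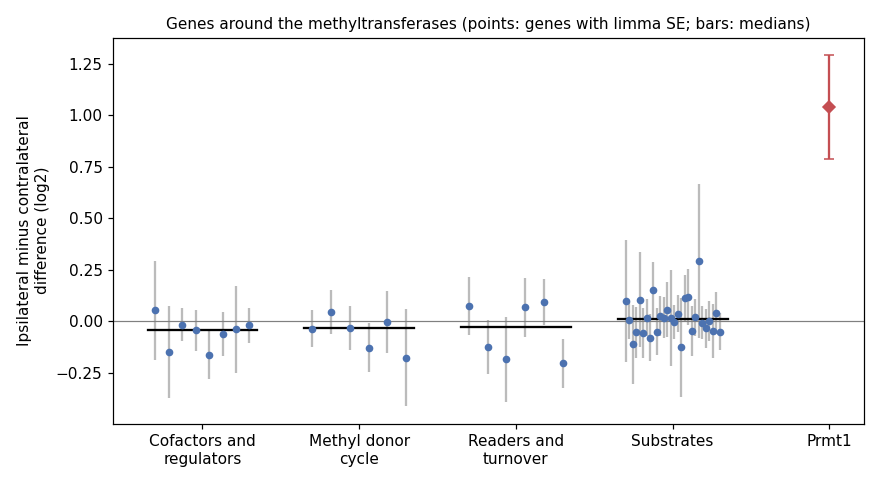
Ipsilateral minus contralateral difference (y axis, log2) of the 48 tested genes around the methyltransferases, by role, with grey bars for the limma SE and black lines for the median of each role, and Prmt1 at the right. The 48 genes lie between -0.21 and 0.29, below Prmt1 at 1.04.

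Markers of other cell types differed between arrays. The mean of 7 choroid plexus markers was 7.41 to 8.19 on the contralateral arrays and 9.27, 4.54 and 4.79 on ipsilateral arrays 1, 2 and 3, and 7 of 7 were lower on the infused side on average. Prmt1 was 9.33, 8.53 and 9.25 on these ipsilateral arrays. Array 2 was the lowest in both. Array 3 had a choroid plexus mean near that of array 2 and a Prmt1 value near that of array 1. On the contralateral side array 2 was the lowest for Prmt1 (7.63) and array 3 for the choroid plexus mean (7.41). The part of choroid plexus content in the Prmt1 difference was not tested. That difference was 0.90 without ipsilateral replicate 1 and 1.33 without ipsilateral arrays 2 and 3. Markers of microglia were higher for 8 of 8 genes, with means of 6.79, 6.87 and 7.02 contralaterally and 7.13, 7.15 and 7.07 ipsilaterally. Those of oligodendrocytes were higher for 6 of 6, with means of 12.97, 12.94 and 13.06 contralaterally and 13.06, 13.15 and 13.10 ipsilaterally. In these 2 lists the means of the sides did not overlap, by a narrow margin for oligodendrocytes. Gene by gene, 4 of 8 microglia and 1 of 6 oligodendrocyte markers had every ipsilateral array above every contralateral array. The share over all tested probe sets was 2.82%, and 48.2% of them were higher on average. The part of these cell types in the Prmt1 difference was not tested. Astrocyte markers (5 of 6 higher), neuronal markers (3 of 7), endothelial markers (3 of 6) and cerebellar markers (3 of 6) had overlapping means. Within the cerebellar list the calcium buffer Calb1, at 10.14, 10.23 and 10.44 contralaterally and 9.70, 9.81 and 9.85 ipsilaterally, was lower without overlap (-0.48, SE 0.11), and Car8, a Purkinje cell protein, was lower in 3 of 3 replicates (-0.31, SE 0.16). Neither passed after adjustment (adjusted p = 1.00 in limma for both). The rest of this list did not go the same way. Pcp2 differed by -0.30 (SE 0.50), with replicate 2 in the opposite direction at 0.32. Neurod1 (0.14), Cbln1 (0.14) and Gabra6 (0.07) were higher on average. The neuronal, astrocyte and oligodendrocyte means of 10.70 to 11.07, 9.04 to 9.28 and 12.94 to 13.15 show nervous tissue on every array, but no list here marks the cochlear nucleus itself.

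**Figure D4:**
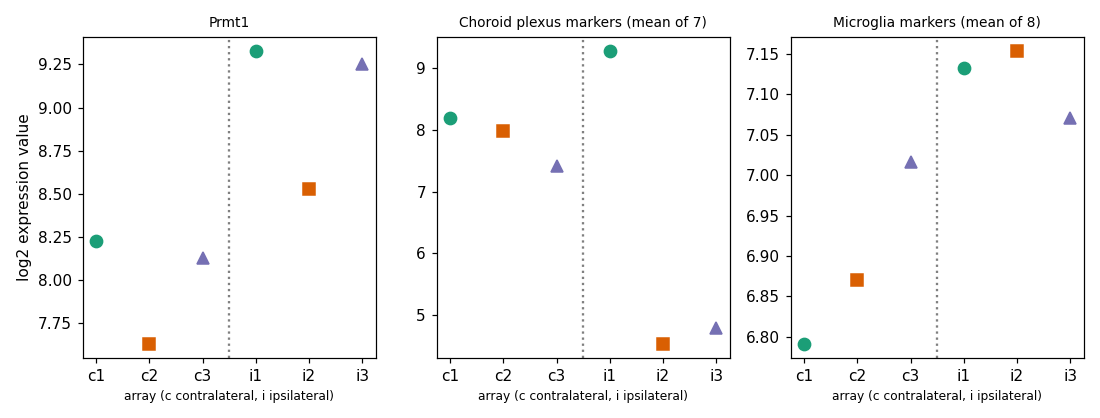
Log2 value (y axes, each with its own range) of Prmt1 and the mean of the choroid plexus and microglia markers on each array (x axis, c contralateral and i ipsilateral with the replicate number). On i1, i2 and i3 Prmt1 is 9.33, 8.53 and 9.25 and the choroid plexus mean 9.27, 4.54 and 4.79, and the microglia mean is 6.79 to 7.02 on the contralateral and 7.07 to 7.15 on the ipsilateral arrays.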

How the data were processed

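The authors deposited log2 expression values made with GCRMA, per the submitters' processing notes, which corrects background by probe sequence, normalizes between arrays and summarises probe sets. No version or settings are known here, and the log2 scale was inferred from values of 1.40 to 16.0. GCRMA compresses dim probes, and normalization removes shifts shared by most genes.

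Sides and replicate numbers were taken from each sample's description. Gene names came from the platform annotation, and 11 of 11 member probe sets matched RefSeq (GRCm38.p6) by Entrez identifier. Of 22690 probe sets, 64 controls and 7328 with a mean at or below 4 were left out. limma 3.58.1 (R 4.3.3, lmFit and eBayes) was fitted to 15298, with Benjamini-Hochberg adjustment over all of them and a threshold of 0.05. Tested on simulated data for this comparison (15298 probe sets, 200 changed per run), it recovered 68.6% of changes of size 1 and 95.2% of size 2 (log2). False calls over 5 runs were 30 and 57. The simulated noise was independent between arrays, with no link between same-numbered ones. These shares hold for that setting, and do not give the share of changes that would be found in the real arrays.

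A listed gene was represented by its brightest tested probe set. All members were named, then up to 4 genes per list by smallest p (Btg1 and Wdr77 were added after their values were seen) and the 4 genes of highest r with Prmt1. Members and lists were chosen with earlier results of these data known.

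Since 1 ear was infused and pools were made by replicate, samples of the same number were read as both sides of the same mice. The sample descriptions do not state this. Deviations of same-numbered samples correlated at 0.09, 0.04 and 0.57, and those of differently numbered samples at -0.37 to 0.30. The pairing is therefore an assumption made from the design and does not rest on these values. Differences given by replicate number depend on it. A replicate block was fitted as an alternative, beside other filters, normalizations, a trended and robust variance, the mean of a gene's probe sets, and fits without single arrays.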

Additional observations from a re-analysis of the deposited data

How the results depend on the processing

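The Prmt1 difference had a value in 13 alternatives. It ranged from 0.86 without contralateral replicate 2 to 1.33 without ipsilateral arrays 2 and 3, and its SE was 0.09 with the replicate block. As the sides of Prmt1 did not overlap, leaving arrays out could not change the sign, and nothing is read from it. Of the other tested member probe sets, the differences of Carm1, Prmt6 and Prmt3 1431768_a_at were negative in 13 of 13 alternatives. That of Prmt3 1426749_at was positive in 13 of 13. Their sizes varied: -0.18 to -0.05, -0.53 to -0.10, -0.76 to -0.20 and 0.05 to 0.17, in that order. Carm1, Prmt6 and Prmt3 1431768_a_at were negative in 3 of 3 replicates. Leaving out a replicate number on both sides therefore could not change their sign. The replicate block left every difference as it was, so nothing is read from these counts. The signs of Prmt2 (both probe sets), Prmt5 and Prmt7 varied with the arrays used. The count of probe sets at an unadjusted p under 0.05 in limma was 569 with the replicate block, 233 with a minimum mean of 6, where fewer were tested, and 571 without ipsilateral arrays 2 and 3, which left 1 ipsilateral array assumed to vary like the contralateral ones. After adjustment it was 0 to 5 when arrays or replicate numbers were left out, with 5 when ipsilateral replicate 1 was left out, 2 when replicate 1 was left out on both sides, and 0 in the other alternatives. Of the 48 listed genes, 0 to 1 had an unadjusted p under 0.05 in limma when an array or replicate number was left out: Tdrd3 without contralateral replicate 2 (-0.32), and Smn1 without ipsilateral replicate 3 (-0.42) or replicate 3 of both sides (-0.36). Over all 15298 tested probe sets the counts under 0.05 in these settings were 302, 514 and 524, in the same order. With 1 listed gene in each, nothing is read from these calls. Without ipsilateral arrays 2 and 3 Mtrr differed by -0.75 and Smn1 by -0.48. The cause of these differences was not tested. With the replicate block 0 probe sets passed after adjustment, as without it, and 0 of the 48 listed genes had an unadjusted p under 0.05. Precision is limited by 3 arrays a side, and dim probe sets have compressed differences.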
